A study of Mus musculus with 32 samples.

Results

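RNA levels of 10 genes that encode methyl-CpG-binding proteins, enzymes of base excision repair and GADD45 stress proteins were compared between WT mESCs and mESCs labelled Eed -/-. The genes were taken by symbol and are Mbd1, Mbd2, Mbd3, Mbd4, Tdg, Apex1, Xrcc1, Parp1, Gadd45a and Gadd45b. All 10 were listed once in both expression tables, which hold 24028 symbols each. mESCs are pluripotent cells derived from the early mouse embryo, and EED is a core subunit of Polycomb repressive complex PRC2. The study asked how Polycomb keeps DNA methylation valleys (DMVs) free of methylation, and these 10 genes encode proteins that read methylated cytosine or act where a modified base is removed from DNA. Each genotype had 1 RNA-seq library, and both were labelled as the TT2 line, grown with serum and LIF on gelatin without a feeder layer. For Eed -/- samples of other assays the strain label is l7Rn5-3354SB, the name of a mutant Eed allele, and the label of the RNA-seq sample does not give it.

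The deposited values are FPKM, in which fragment numbers are divided by transcript length and by library depth, and no read counts were used. The steps between low values gave a depth of about 7240000 fragments for WT and 6450000 for Eed -/-. Eed itself stood at 63.0 FPKM in WT and at 70.9 FPKM in Eed -/-, so its transcript was not lower there, and that library is named by its label throughout. The l7Rn5-3354SB allele is a point mutation, and for cells that carry it the amount of Eed transcript is no check of the label. For its Eed-deficient mESCs the paper reported a check of the Eed loss at the level of H3K27me3, by western blot and ChIP-seq. Those assays were not analysed here. All 6 pluripotency markers (Pou5f1, Nanog, Sox2, Zfp42, Esrrb and Dppa5a) reached 49.2 FPKM or more in each library, but their levels were not all equal. Zfp42 stood at 131 FPKM in WT and 272 in Eed -/-, Nanog at 114 and 176, and Dppa5a at 250 and 372. On the scale defined below their differences were 1.30, 0.86 and 0.80, and that of Zfp42 was past 2-fold. Those of Pou5f1, Esrrb and Sox2 were 0.14, 0.13 and -0.08. The summed FPKM of 5 fibroblast markers was 1.68 in WT and 7.14 in the other library, of which Thy1 alone made up 6.97, while Dcn was listed at 0 in both and Col3a1 at 0 in the second. For 5 primitive endoderm markers the sums were 1.43 and 3.98, and for 5 neural and mesoderm markers 4.08 and 2.78. The part of these cells in the values below was not tested. No difference below can be set against replicate spread, no p-value was computed, and the intervals below cover counting error only. Because the RNA came from bulk cultures, fewer expressing cells and less RNA per cell cannot be told apart.

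Methyl-CpG-binding domain (MBD) proteins recognise methylated CpG and bring repressive complexes to it, although MBD3 itself binds methylated DNA poorly. Base excision repair removes a damaged or mismatched base with a glycosylase, cuts the backbone at the empty site and reseals the strand. In mESCs this pathway also completes active demethylation, since TET enzymes oxidise methylcytosine and the glycosylase TDG excises the oxidised forms. GADD45 proteins are small stress-induced regulators that have been linked to repair and to locus-specific demethylation.

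Among the 10 genes, Gadd45a and Gadd45b were both at least 2-fold lower in the library labelled Eed -/-. The base excision genes Tdg, Apex1, Xrcc1 and Parp1 all had differences below 0 that did not reach 2-fold, though the counting intervals of Tdg and Apex1, taken with the median transcript length, included no change. The MBD genes had differences above 0, also under 2-fold, except that Mbd1 lay on the other side of 0 with the FPKM as deposited, and the intervals of Mbd1 and Mbd2 included no change. These differences are Eed -/- minus WT on the scale of log2(FPKM + 1), after quantile normalization of the libraries, and 2-fold means at least 1 on this scale. All 10 genes passed the filter of a mean normalized FPKM of at least 0.1, and each exceeded that level in WT and in Eed -/-. In the direction of lower values 2 of the 10 genes passed the 2-fold threshold, beside 3.98% of the 14835 genes tested (590 genes). Higher values past 2-fold were found for 0 of the 10, beside 3.8% of all genes tested (564 genes). With the FPKM as deposited, 801 of all genes tested were lower and 455 higher past 2-fold, and 2 and 0 of the 10. The median difference was -0.32 over the 10 genes and 0.01 over all genes tested.

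**Figure D1:**
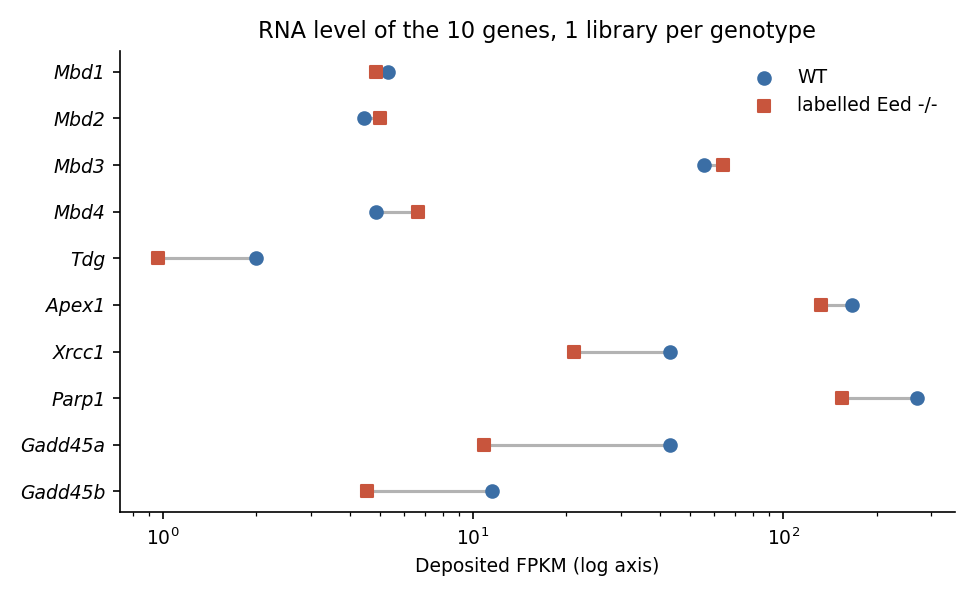
Deposited FPKM of the 10 genes on a log axis, with a circle for the WT library and a square for the library labelled Eed -/- (1 library per genotype). Parp1 was the highest gene in both libraries and Tdg the lowest, and the widest gap was that of Gadd45a, from 43.1 to 10.8.

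In WT the levels ran in the order Parp1, Apex1, Mbd3, Xrcc1, Gadd45a, Gadd45b, Mbd1, Mbd4, Mbd2 and Tdg. They spanned an FPKM of 269 for Parp1 to 2.00 for Tdg, a scale that is already per length of transcript. Xrcc1 and Gadd45a stood side by side at 43.1 each, and the counting intervals of neighbours also overlapped along the run from Mbd1 through Mbd4 and Mbd2 to Tdg. In the library labelled Eed -/- the top of the order was the same, with Parp1 at 155, Apex1 at 133, Mbd3 at 63.8 and Xrcc1 at 21.1. Below these, neighbours from Gadd45a to Gadd45b (Gadd45a, Mbd4, Mbd2, Mbd1 and Gadd45b) had overlapping intervals, between 10.8 and 4.56. Gadd45b had stood above the 3 lowly expressed MBD genes in WT, and in the second library it was listed below them. Among all genes tested, Parp1 and Apex1 lay above the 97th percentile of expression level in both libraries, while Tdg lay at percentile 36.9 in WT and 27.8 in the other.

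Of the 4 MBD genes, Mbd3 had the highest level. MBD3 is a subunit of the NuRD remodelling and deacetylase complex, and its gene gave 55.3 FPKM in WT against 63.8 FPKM in the library labelled Eed -/-. The normalized level was 1.36-fold that of WT (95% counting interval 1.18 to 1.56), a difference of 0.43. Mbd2, which encodes the subunit that takes the place of MBD3 in a NuRD complex directed to methylated DNA, had values of 4.46 and 5.01. Its ratio was 1.24 (interval 0.634 to 2.43), so a difference was not detectable from about 20 fragments in each library. The FPKM of Mbd3 was 12.4 times that of Mbd2 in WT and 12.7 times in the second library, values that carry the counting error of Mbd2.

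Mbd1, which encodes a protein that also carries CXXC zinc fingers, had FPKM values of 5.33 and 4.85. The ratio after normalization was 1.01 (counting interval 0.743 to 1.38), and the difference of 0.02 turned to -0.11 with the FPKM as deposited. Mbd4 encodes the MBD protein that is itself a glycosylase, removing thymine and uracil mispaired with guanine at CpG. Its level was 4.88 FPKM in WT against 6.65 FPKM in the library labelled Eed -/-. The normalized level was 1.51-fold that of WT (interval 1.12 to 2.04), a difference of 0.50, the highest of the 10 genes, and 15.2% of all genes tested had a difference as high or higher.

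**Figure D2:**
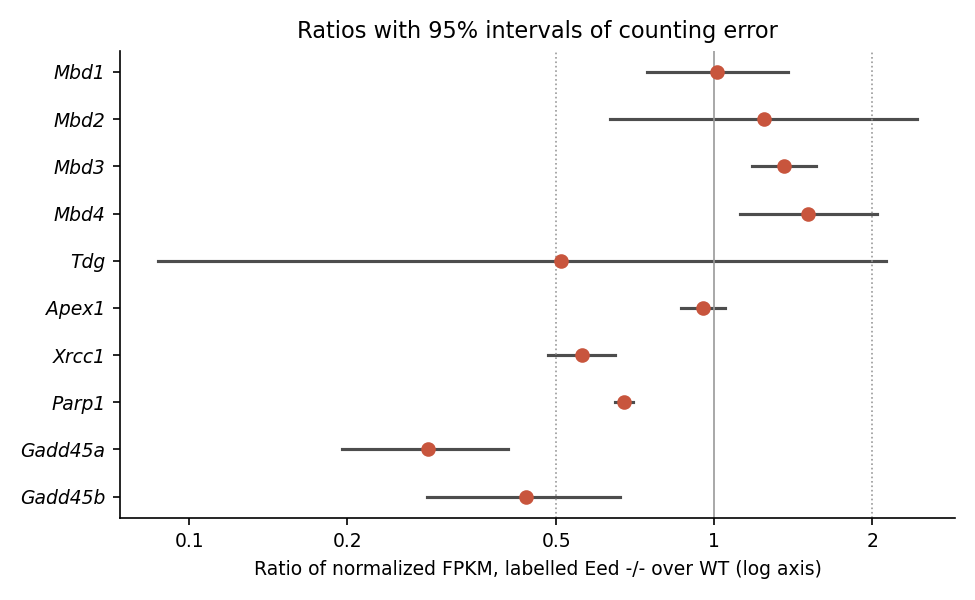
Ratio of normalized FPKM, the library labelled Eed -/- over WT, for each of the 10 genes on a log axis, with lines for the 95% interval of counting error from approximate fragment numbers. Dotted lines mark 2-fold. The intervals of Mbd1, Mbd2, Tdg and Apex1 include 1, and those of Gadd45a and Gadd45b end below it at 0.404 and 0.661.

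Tdg, the glycosylase that excises thymine from G-T mispairs and the formyl and carboxyl forms of cytosine, was the lowest gene of the 10. The WT value was 2.00 FPKM and that of the library labelled Eed -/- 0.966 FPKM, a difference of -0.56. The gene has 8 annotated transcripts, and with their median length these values stand for only about 8 and 3 fragments. The ratio of 0.510 had a counting interval of 0.0871 to 2.12, which narrowed to 0.290 to 0.868 with the longest transcript, so whether counting error covers the difference depends on the length assumed. The transcript also has 3 near-identical copies elsewhere in the genome, and its value is uncertain where reads match several of them. Mbd4 and Tdg, the glycosylases that share the thymine mispair, stood at an FPKM ratio of 2.43 in WT and 6.88 in the second library.

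Apex1 encodes the endonuclease that cuts the backbone after a base has been removed. Its WT value was 167 FPKM, against 133 FPKM for the library labelled Eed -/-, and the normalized ratio was 0.952 (interval 0.865 to 1.05). The difference of -0.07 was the smallest of the base excision genes here, and it was -0.33 with the FPKM as deposited. Apex1 shares 877 exonic bases with Tmem55b on the opposite strand, and Tmem55b had FPKM values of 8.69 and 7.70, far under those of Apex1.

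XRCC1 is the scaffold on which ligase III and polymerase beta assemble at a single-strand break. Xrcc1 gave 43.1 FPKM in WT but 21.1 FPKM in the library labelled Eed -/-, from about 616 and 269 fragments of its single annotated transcript. The normalized ratio was 0.559 (interval 0.483 to 0.646), a difference of -0.81 that fell short of 2-fold, and 6.77% of all genes tested had a difference as low or lower. PARP1 detects strand breaks and recruits XRCC1 through poly(ADP-ribose). Parp1 had FPKM values of 269 and 155, a ratio of 0.672 (interval 0.645 to 0.699) and a difference of -0.57. Parp1 lies on chromosome 1 of mm9 (182499086 to 182531384), where 752 genes tested had a median difference of -0.29. Relative to that median its difference was -0.28, close in size to the median of the chromosome itself. Apex1 exceeded Xrcc1 by 3.87 times in FPKM in WT and by 6.29 times in the other library.

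On the scale of log2(FPKM + 1) the GADD45 genes were the only ones of the 10 past 2-fold. Gadd45a, which is induced by DNA damage through p53 and by other stresses, gave 43.1 FPKM in WT but 10.8 FPKM in the library labelled Eed -/-. With the median length of its 5 annotated transcripts this is about 176 and 39 fragments. After normalization the level was 3.52-fold lower in the library labelled Eed -/- (ratio 0.284, interval 0.196 to 0.404), a difference of -1.73, and 0.674% of all genes tested were as low or lower. Gadd45b, which responds to NF-kB and TGF-beta signalling, had values of 11.5 and 4.56 from about 91 and 32 fragments of its single annotated transcript. It was 2.29-fold lower in the second library (ratio 0.438, interval 0.283 to 0.661), a difference of -1.05 that lay just past the threshold. The remaining gene of the family, Gadd45g, is no member of the group of 10. It had FPKM values of 4.74 and 1.03 and a difference of -1.43, though only from about 27 and 5 fragments (ratio interval 0.0698 to 0.612). All 3 GADD45 genes were thus past 2-fold and lower in the library labelled Eed -/-.

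**Figure D3:**
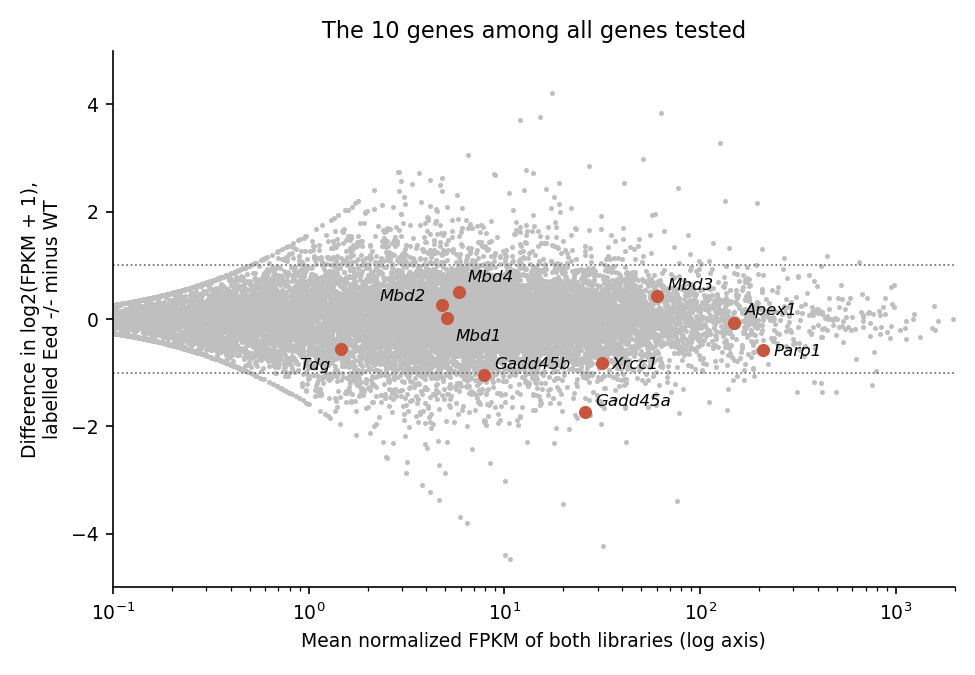
Difference in log2(FPKM + 1), the library labelled Eed -/- minus WT, against the mean normalized FPKM of both libraries on a log axis, for all genes tested (grey) and the 10 genes (red), with dotted lines at 2-fold. Of 14835 genes tested, 70 lie outside the axes and are not drawn. Gadd45a at -1.73 and Gadd45b at -1.05 lie below the lower dotted line, and the other 8 genes lie between the lines.

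Since the 3 GADD45 genes were lower together, the 250 bases before their annotated starts are shown here, read in the direction of transcription from the mm9 genome. Capitals mark every CCAAT box (CCAAT), octamer (ATTTGCAT) and TATA box (TATAAA) on either strand. The octamer is the recognition sequence of POU factors such as OCT1 and OCT4, and the CCAAT box that of NF-Y.
Gadd45a, chr6:66987452-66987701, minus strand: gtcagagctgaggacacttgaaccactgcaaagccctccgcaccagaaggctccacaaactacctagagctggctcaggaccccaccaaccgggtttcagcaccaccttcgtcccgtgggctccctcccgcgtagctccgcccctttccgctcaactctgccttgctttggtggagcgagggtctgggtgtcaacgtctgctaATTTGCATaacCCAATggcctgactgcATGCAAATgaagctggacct
Gadd45b, chr10:80392586-80392835, plus strand: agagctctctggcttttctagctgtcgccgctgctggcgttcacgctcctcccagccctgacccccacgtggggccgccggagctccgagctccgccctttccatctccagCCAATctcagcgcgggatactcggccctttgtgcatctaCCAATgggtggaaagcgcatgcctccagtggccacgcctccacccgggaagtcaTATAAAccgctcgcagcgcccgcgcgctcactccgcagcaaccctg
Gadd45g, chr13:51941797-51942046, plus strand: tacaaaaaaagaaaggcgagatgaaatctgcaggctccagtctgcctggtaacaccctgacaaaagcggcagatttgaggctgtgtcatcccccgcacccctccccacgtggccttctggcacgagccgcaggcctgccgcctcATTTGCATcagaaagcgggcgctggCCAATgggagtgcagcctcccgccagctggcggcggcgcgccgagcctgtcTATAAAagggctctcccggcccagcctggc
A CCAAT box was found in all 3, once in Gadd45a and Gadd45g and at 2 places in Gadd45b. Gadd45a held the octamer at 2 places, starting 47 and 20 bases before its annotated start, on opposite strands and on either side of the CCAAT box. Gadd45g held it once, starting 106 bases before its start, and the letters were not found in the window of Gadd45b. In windows of 250 bases before to 50 bases after the start of 22030 protein-coding genes, the octamer was found in 1.73%, the CCAAT box in 38.0% and the TATA box in 13.4%. A match of letters does not show that a factor was bound.

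Over the same windows, the promoters of all 10 genes held more CpG sites than the median of 11 over protein-coding genes. The count ran from 12 in Gadd45a to 29 in Mbd1, Apex1 and Parp1. Gadd45a, the gene with the lowest difference of the 10, thus also had the CpG-poorest promoter among them, with an observed-to-expected CpG ratio of 0.471, while Gadd45b had 24 CpG sites and a ratio of 0.858. The GC box (GGGCGG) was found in 7 of the 10 windows and in 43.5% of all, and the CCAAT box in 8 of the 10.

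The genes lie on 6 chromosomes of mm9, and on chromosomes 6 and 10 genes with differences of opposite sign lay on the same chromosome. Mbd3 (79855284 to 79862295) and Gadd45b (80392836 to 80394949) lie 531 kb apart on chromosome 10, with differences of 0.43 and -1.05, and Tdg lies further along at 82092573 to 82113544. The median difference of the 639 genes tested on chromosome 10 was 0.02. On chromosome 6, Gadd45a (66985090 to 66987451) and Mbd4 (115790715 to 115803389) had differences of -1.73 and 0.50, beside a chromosome median of 0.01. Within 1 Mb of Gadd45a 6 other genes were tested, and their differences ran from -0.68 to 0.38, so Gadd45a stood below each of them. Around Gadd45b 87 genes were tested within 1 Mb, with a median of -0.06 and a range of -2.05 to 0.80. Xrcc1 is on chromosome 7 (25332169 to 25358457), where the median was -0.01 and the 39 genes tested within 1 Mb had a median of -0.18. Apex1 is on chromosome 14 (51544643 to 51546814), where 443 genes tested had a median of -0.07, and the 14 genes near it had a median of -0.35. Mbd1 and Mbd2 lie on chromosome 18, with a median of 0.11 over 329 genes. Gadd45a shares 337 exonic bases with the non-coding gene E230016M11Rik on the opposite strand, with an FPKM of 0.286 for WT and near 0 for Eed -/-, and Tdg shares 367 with Glt8d2, at 0.350 and 0.314.

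Other genes of these pathways were looked up from 7 lists, with 59 genes tested in all. In the library labelled Eed -/-, 2 of them passed 2-fold with higher values and 4 with lower values, beside 3.8% and 3.98% of all genes tested. All 8 genes listed as other readers of methylated CpG had differences above 0, with a median of 0.32 and none past 2-fold. So did the 4 MBD genes (with the FPKM as deposited, 7 of the 8 and 3 of the 4). Mbd5 (difference 0.41) and Mbd6 (0.04) are among the 8 by family name, and binding of methylated CpG by their products is not assumed here. Of all genes tested 50.9% had differences above 0, and 42.6% with the FPKM as deposited. Uhrf1, which encodes a reader of hemimethylated CpG that brings DNMT1 to replicated DNA, stood above Mbd3 in both libraries, at 79.2 and 91.7 FPKM. The largest difference of the 8 was that of Zbtb33, which encodes the zinc-finger reader Kaiso, from an FPKM of 2.27 to 4.52, a difference of 0.84. Its normalized ratio was 2.16 (interval 1.44 to 3.28), so it was past 2-fold before 1 is added to each value. Zbtb33 lies on chromosome X, where 518 genes tested had a median of 0.46. The smallest was that of Zbtb38, another zinc-finger reader, at 0.0035. Of 11 NuRD partners of MBD2 and MBD3, 7 had differences below 0 (10 with the FPKM as deposited), with a median of -0.16. Over all genes tested, 7263 of 14835 had differences below 0, and 57.4% with the FPKM as deposited, where the median of all genes was itself -0.09. Mta1, a NuRD scaffold subunit, went from 13.8 to 3.52, a difference of -1.59, and the 21 genes tested within 1 Mb of it had a median of -0.86.

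Of 9 other glycosylases 4 had differences above 0 and 5 below (3 and 6 with the FPKM as deposited), with a median of -0.03. Past 2-fold was Neil2, a glycosylase for oxidised bases, at 2.71 and 0.625 (difference -1.15, about 18 and 4 fragments). With the FPKM as deposited Mutyh, which removes adenine mispaired with oxidised guanine, was also past 2-fold lower. Its normalized ratio was 0.396 (interval 0.201 to 0.737), so it was past 2-fold lower before 1 is added to each value. Among 11 genes of later steps 4 had differences above 0 and 7 below (2 and 9 with the FPKM as deposited), and the median was -0.11. Tdp1, which clears blocked DNA ends, was past 2-fold at 18.9 and 7.93, a difference of -1.01 that lay just past the threshold. The 12 genes tested within 1 Mb of Tdp1 had a median of -0.42. Lig3, the ligase that XRCC1 binds, stood at 19.8 and 21.5 with a difference of 0.29. Of the 7 genes that methylate or oxidise cytosine none was past 2-fold, and their differences ran from -0.51 for the de novo methyltransferase Dnmt3a to 0.70 for its cofactor Dnmt3l. Those of Tet1 and Tet2 were 0.58 and 0.57 (ratio intervals 1.29 to 1.76 and 1.38 to 1.66), and that of Tet3 was -0.03. The paper reported, without showing the data, no significant change in DNMT expression in its Eed-deficient cells. With 1 library per genotype significance was not tested here. Among 4 cytidine deaminases, Apobec2 was past 2-fold at 6.37 and 13.4, a difference of 1.11. With the FPKM as deposited it fell short of 2-fold once 1 was added to each value.

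**Figure D4:**
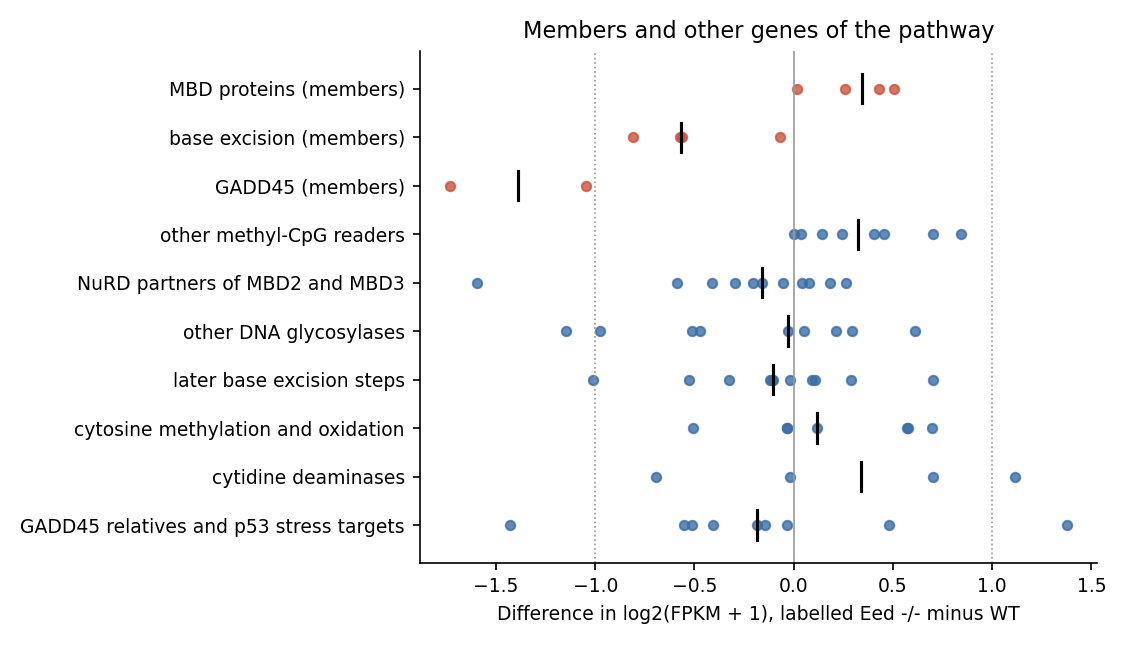
Difference in log2(FPKM + 1), the library labelled Eed -/- minus WT, for each gene of the 10 in 3 families (red) and of 7 other lists (blue), with a black bar for the median of each list and dotted lines at 2-fold. The MBD genes and the genes listed as other readers lie above 0 on this scaling (3 of 4 and 7 of 8 with the FPKM as deposited). Both GADD45 genes lie beyond the lower dotted line.

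GADD45 relatives and targets of p53 were listed together because Gadd45a is itself such a target. Of 9 genes, 7 had differences below 0, beside 7263 of all 14835 genes tested, and the median was -0.19. Gadd45g was the one past 2-fold lower. Pmaip1, which encodes the apoptosis regulator NOXA and is also a p53 target, was past 2-fold in the other direction, at 9.73 FPKM in WT against 24.0 FPKM in the library labelled Eed -/-, a difference of 1.38. Cdkn1a, the cell-cycle inhibitor most often used to read p53 activity, had values of 3.91 and 2.51 and a difference of -0.41, and Mdm2, which encodes the ubiquitin ligase of p53, one of -0.19. With the median transcript length the counting intervals of both ratios included 1, at 0.296 to 1.52 for Cdkn1a and 0.683 to 1.12 for Mdm2, and with the longest that of Mdm2 did not (0.774 to 0.987). At the median length those of Sesn2 (difference -0.55, 0.574 to 0.774) and Bax (-0.15, 0.815 to 0.999) lay below 1. That of Ccng1 (difference 0.48, 1.27 to 1.55) lay above 1. For Bbc3, with a difference of -0.51, it was 0.417 to 1.06, and 0.497 to 0.904 with the longest.

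Of the 10 genes, 9 kept the sign of their difference under 7 other choices of scaling, pseudocount and filter, with Mbd1 as the exception. All 10 kept their side of the 2-fold threshold. With the FPKM as deposited the median of all genes moved by -0.10, from 0.01 to -0.09, and relative to that median Gadd45a stood at -1.81, Gadd45b at -1.08, Xrcc1 at -0.91 and Parp1 at -0.70. Mbd4 stood at 0.47 and Mbd3 at 0.29 on the same footing. Xrcc1 came closest to the threshold without passing it, at -0.9968 with the FPKM as deposited. Each choice was changed with the others held fixed. Before 1 is added to each value, the deposited FPKM of Xrcc1 (43.1 and 21.1) and of Tdg (2.00 and 0.966) were past 2-fold lower.

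**Figure D5:**
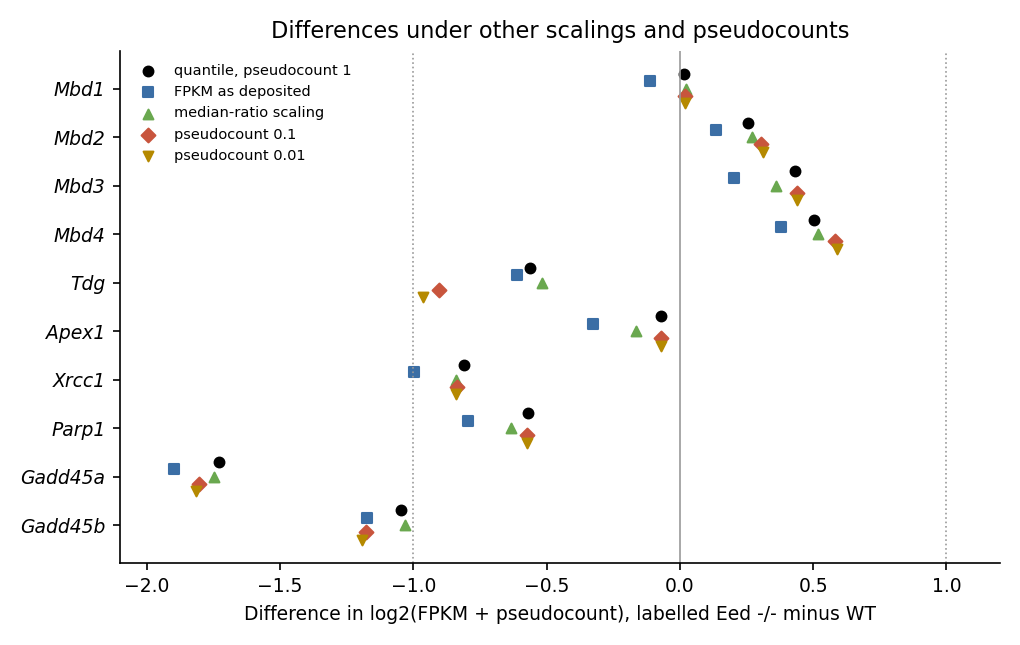
Difference between the libraries for each of the 10 genes with quantile normalization and a pseudocount of 1 (black circles) and under 4 other choices of scaling or pseudocount, in log2 units, with dotted lines at 2-fold. Gadd45a and Gadd45b lie beyond the lower line under all 5, and Mbd1 alone lies on both sides of 0.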

How the data were processed

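RNA-seq of WT and Eed -/- mESCs was analysed, with 1 library per genotype, of 32 samples in the series, and the samples of other assays were not analysed here. The authors depleted total RNA of ribosomal RNA, made strand-specific libraries, aligned them to mm9 using TopHat and quantified them using Cufflinks. The deposited unit is FPKM, 1 value for each gene symbol entry. The methods and the submitters' processing notes differ on the TopHat release, and the notes name TopHat2 2.0.11, Bowtie2 2.2.2 and Cufflinks 2.2.1. The annotation and the strand setting used for counting are not given in the sources used here.

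Values of the 268 repeated symbols were added up (0 of the 10 genes are among them), and the libraries were quantile-normalized. Differences were taken in log2(FPKM + 1), which understates those of low genes, keeping means of 0.1 normalized FPKM or more and 2-fold as the threshold. The 10 genes, the lists and the rule for named genes were chosen with earlier results of these data known, so no count over them is independent evidence. The rule named all 10 genes, each listed gene past 2-fold and, for a list with none, its extremes at a mean FPKM of 2 or more. Cdkn1a, Mdm2, Sesn2, Bax, Ccng1, Bbc3, Lig3, Mutyh, Uhrf1, Mbd5, Mbd6, Tet1, Tet2 and Tet3 were added to the named genes after their values were seen. Positions, lengths and sequences came from GENCODE vM1 on NCBIM37 (mm9), to which 20642 symbols matched.

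Depth was taken from low FPKM values of 4754 genes with 1 transcript of at least 1000 bases, less 180 bases, where 80.5% of 694 values for WT and 81.7% of 777 for Eed -/- were whole fragments to within 0.1, beside 20% for evenly spread values. Intervals are exact 95% binomial (Clopper-Pearson) intervals on fragment numbers approximated with the median transcript length, scaled to the normalized ratio. Copies were sought with minimap2 2.31 (80% coverage, 95% identity). The steps were tested on simulated data. Analyses ran under Python 3.11.15 with scipy 1.17.1, pandas 2.3.3, numpy 2.4.6 and, for plots, matplotlib 3.10.9.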

Additional observations from a re-analysis of the deposited data

How the results depend on the processing

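No paired analysis was possible because each genotype has 1 RNA-seq library. Of the 10 genes, 2 were past 2-fold under every scaling, pseudocount and filter, each changed with the others held fixed. A 1.5-fold threshold was passed by 3 and a 3-fold threshold by 1. Without the added 1, the deposited FPKM of Xrcc1 and Tdg were also past 2-fold lower. Over all genes, a pseudocount of 0.1 gave 1694 higher and 1778 lower genes, a pseudocount of 0.01 gave 1914 and 1989, a 1.5-fold threshold 1819 and 1841, and a 3-fold threshold 152 and 137. Among the 59 other listed genes, the FPKM as deposited left 1 higher (Apobec2 was lost) and gave 5 lower (Mutyh was added). A pseudocount of 0.1 or 0.01 gave 3 higher and 6 lower of these genes. For the same genes a 1.5-fold threshold gave 8 higher and 7 lower, and a 3-fold threshold 0 higher and 1 lower. The stricter and looser thresholds change these counts by construction, and a smaller pseudocount widens the differences of low genes. The median of the 10 genes ran from -0.47 with the FPKM as deposited to -0.32. The medians of the other lists kept their sign, except that of the genes that methylate or oxidise cytosine, which was -0.06 with the FPKM as deposited. Depth limits the values of Tdg, Mbd2, Gadd45g and Neil2, which rest on few fragments.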
